A study of Rattus norvegicus with 23 samples.

Results

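Expression of 10 circadian clock genes was followed over 23 newborn rat hearts from 4 maternal exposure groups. A probe set was taken for each gene whose symbol stood alone in the array annotation, which gave 10 probe sets for the 10 genes, 1 each, of 29170 on the array and 15310 with a single gene symbol. The genes were Clock, Npas2, Per1, Per2, Per3, Cry1, Cry2, Nr1d1, Nr1d2 and Dbp. The hearts were whole hearts of Sprague Dawley pups on postnatal day 1, taken from males and females together, with 1 Affymetrix Rat Gene 1.0 ST array for each heart. Control pups (n = 7) came from dams on control diet that were given citrate buffer on gestational day 14. Diabetes-exposed pups (n = 6) came from dams on control diet that received streptozotocin, which destroys pancreatic beta cells, at 65 mg/kg on the same day, and their hyperglycemia was partly held with insulin. HF diet-exposed pups (n = 5) came from dams on high-fat (HF) diet from 28 days or more ahead of mating until delivery, given buffer. Combination-exposed pups (n = 5) came from dams with both the HF diet and streptozotocin. The methods describe insulin for hyperglycemia without setting the 2 streptozotocin groups apart. The deposited values are log2 values centred so that the median of each probe set over the 23 hearts is 0. A value is therefore a distance from that median, the level of a gene cannot be read, and 2 genes cannot be ranked by level. The sources used here give neither the time of day at which a heart was taken nor the sex of single hearts.

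The clock is a feedback loop of transcription factors that runs in nearly every mammalian cell, the cardiomyocyte included. Clock, or its relative Npas2, pairs with Bmal1 and switches on genes that carry an E-box, among them the Per and Cry genes and Nr1d1 and Nr1d2. Per and Cry proteins come back to the nucleus and hold that pair down, and Nr1d1 and Nr1d2 (the REV-ERB receptors) repress Bmal1 and Npas2 through a response element shared with the activating ROR receptors. Dbp and Tef activate, and Nfil3 represses, through the D-box, an output element that the Per genes also carry. In tissues of adult rodents Bmal1 and Npas2 peak at about the opposite time of day from Dbp, Nr1d1, Nr1d2 and Per3, with Per2 later and Cry1 last, and the same loop drives daily changes of cardiac fuel use.

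The promoter windows below are shown because the loop runs through these elements, and they are the windows of the clock genes that held a match, with that of Bmal1. Each runs from 250 bases before to 50 bases after a RefSeq start site in the rat assembly GRCr8, 5′ to 3′ on the strand of the gene. Capitals mark matches, on either strand, to the E-box CACGTG, the E-prime box CACGTT, which reads as AACGTG when it lies on the other strand, the D-box TTATGTAA or TTACGTAA, and the ROR response element AGTAGGTCA or AGTGGGTCA. These motifs do not overlap one another in the windows shown.
Per2, chr9:99496944-99497243, minus strand: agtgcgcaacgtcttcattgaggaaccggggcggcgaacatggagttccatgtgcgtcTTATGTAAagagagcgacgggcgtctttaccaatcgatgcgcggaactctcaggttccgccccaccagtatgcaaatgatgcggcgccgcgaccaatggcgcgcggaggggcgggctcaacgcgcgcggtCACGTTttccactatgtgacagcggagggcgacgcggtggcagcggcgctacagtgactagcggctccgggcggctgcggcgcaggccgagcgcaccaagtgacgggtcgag
Cry2, chr3:98860388-98860687, minus strand: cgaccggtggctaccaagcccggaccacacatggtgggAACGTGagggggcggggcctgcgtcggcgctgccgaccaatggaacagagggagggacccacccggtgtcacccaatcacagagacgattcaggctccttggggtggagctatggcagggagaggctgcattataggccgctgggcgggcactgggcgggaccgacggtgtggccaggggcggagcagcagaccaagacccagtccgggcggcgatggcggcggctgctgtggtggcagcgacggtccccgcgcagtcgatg
Nr1d1, first window, chr10:84229405-84229704, minus strand: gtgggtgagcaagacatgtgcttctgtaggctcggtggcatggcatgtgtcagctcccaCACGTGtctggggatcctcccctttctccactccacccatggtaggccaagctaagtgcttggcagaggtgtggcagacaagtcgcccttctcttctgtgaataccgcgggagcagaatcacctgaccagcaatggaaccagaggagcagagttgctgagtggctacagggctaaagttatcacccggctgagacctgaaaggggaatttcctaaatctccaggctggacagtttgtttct
Nr1d1, second window, chr10:84231763-84232062, minus strand: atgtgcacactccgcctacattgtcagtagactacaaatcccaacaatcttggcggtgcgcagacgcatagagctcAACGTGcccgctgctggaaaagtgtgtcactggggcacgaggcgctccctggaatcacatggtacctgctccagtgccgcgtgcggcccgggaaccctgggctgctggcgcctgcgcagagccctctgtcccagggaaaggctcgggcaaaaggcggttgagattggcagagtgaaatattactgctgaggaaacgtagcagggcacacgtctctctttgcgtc
Bmal1, chr1:176766078-176766377, plus strand: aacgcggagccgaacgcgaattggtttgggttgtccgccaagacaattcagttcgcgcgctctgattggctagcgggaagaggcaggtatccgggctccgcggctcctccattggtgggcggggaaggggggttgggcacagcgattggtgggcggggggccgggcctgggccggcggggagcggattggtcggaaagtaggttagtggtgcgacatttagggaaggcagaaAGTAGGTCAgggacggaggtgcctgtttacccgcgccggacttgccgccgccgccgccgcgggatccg

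Per2 held an E-prime box that began 62 bases before the start site and a D-box that began 192 bases before it. Cry2 held an E-prime box 212 bases before its start, and the 2 windows of Nr1d1 held an E-box 191 bases and an E-prime box 174 bases before theirs. Bmal1 held the ROR response element 18 bases before its start. Of other genes of the loop, Tef, Bhlhe40 and Bhlhe41 held an E-box, Bmal2 held an E-prime box and Nfil3 held no match. Their windows are not printed. Of all 33469 windows of this length, 6.42% held the E-box, 4.83% the E-prime box, 1.01% the D-box and 0.406% the ROR response element. Windows were found for 9 of the 10 genes, 11 windows in all, and 3 of the genes held a match. The windows of Per1, Per3, Clock, Npas2, Nr1d2 and Dbp held none of these letters and are not printed. Such a match is a description of these letters only.

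Before the results, a few hearts have to be named. Control heart 1 carried lung markers (8 of 8 listed probe sets measured) at a mean of 3.10 and thymus markers (8 of 10 measured) at 3.95 on the centred log2 scale, while the other hearts lay at or below 0.81 and 0.25. Combination heart 1 had the widest spread over probe sets (SD 0.39) and the lowest limma array weight (0.313). Along the first principal component of all probe sets, which held 28.8% of the variance, combination hearts had a mean of 18.3, control hearts -1.77, diabetes hearts -4.48 and HF diet hearts -10.5, with overlapping ranges. Sample code stems in the labels are shared by HF diet hearts 3, 4 and 5, by combination hearts 1 and 2, and by combination hearts 4 and 5. The sources do not say what a stem stands for, so the p-values measure the spread between hearts, some of which may be littermates. The level of the 12 cardiomyocyte markers measured cannot be read from centred values, so the tissue label was not checked by level. In whole hearts, fewer cells of a type and less RNA per cell cannot be told apart.

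Most of the clock genes were among the probe sets that differed most from heart to heart within a group. The SD between hearts of 1 group, pooled over the 4 groups, was 0.68 for Per1, 0.65 for Per3 and 0.48 for Nr1d1 on the log2 scale, against a median of 0.17 over the 15310 probe sets with 1 symbol. Only 0.464%, 0.523% and 1.83% of those probe sets had a larger SD than these 3 genes. Nr1d2 (SD 0.41), Dbp (0.40) and Cry2 (0.36) followed, with 3.06%, 3.41% and 5.13% of probe sets above them. Per2 (0.29) and Cry1 (0.27) lay lower, with 10.5% and 13.1% above. The activators Clock and Npas2 were the exception. Their SDs of 0.14 and 0.19 were exceeded by 73.6% and 41.9% of probe sets, so Clock was steadier than most single-symbol probe sets. Bmal1, the partner of both, varied as widely as Per3, with an SD of 0.64 that 0.575% of probe sets exceeded. Group membership took 4.68% (Cry1) to 34.9% (Per2) of the variance of a clock gene, and the median over the single-symbol probe sets was 13.1%. Most of the spread of these genes therefore lay between hearts that had the same exposure. These SDs are a description and carry no test.

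**Figure D1:**
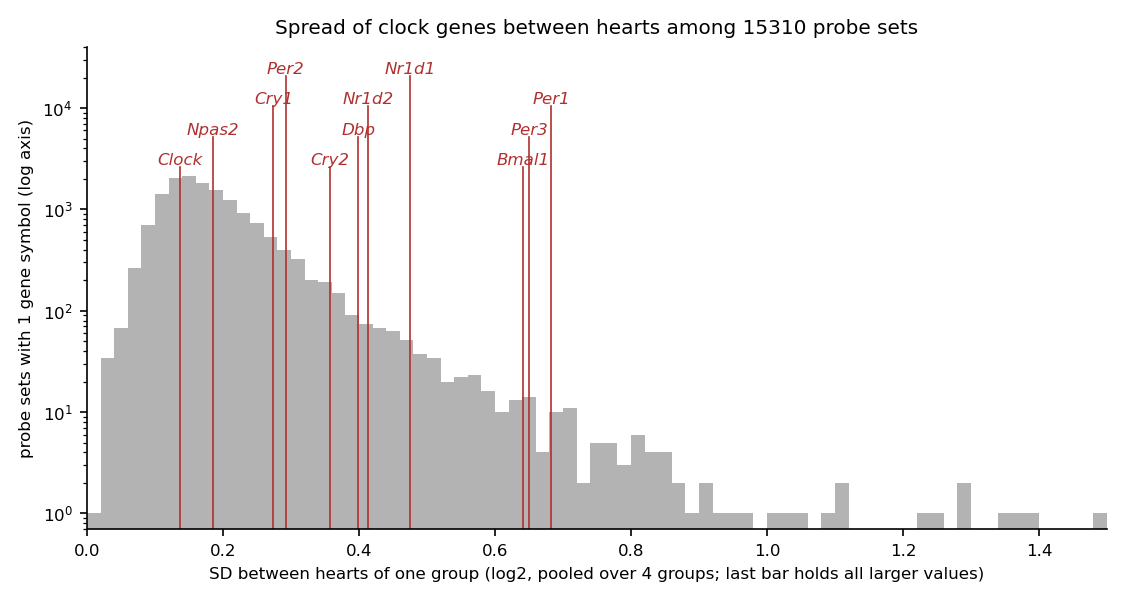
Number of single-symbol probe sets (vertical log axis) by their SD between hearts of a group on the log2 scale (horizontal axis), with red lines at the 10 clock genes and Bmal1. Clock and Npas2 stand in the bulk of the distribution, and Per1, Per3 and Bmal1 in its far right tail at 0.64 to 0.68.

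Clock and Npas2, the activating partners of Bmal1, moved little. In control hearts Clock ran from -0.34 through a median of 0.03 to 0.16, and in diabetes hearts from -0.24 through -0.08 to 0.12. HF diet hearts 1 to 5 gave -0.01, 0.02, 0.01, 0.09 and 0.15, and combination hearts 1 to 5 gave -0.26, -0.02, 0.06, 0.04 and 0.00. Combination heart 1 was the low one of its group, and all groups overlapped. For Npas2 the range was -0.37 to 0.27 among control, -0.25 to 0.13 among diabetes, -0.14 to 0.19 among HF diet and -0.31 to 0.28 among combination hearts. Neither gene passed the threshold in any comparison. The 95% interval of the difference between combination and control hearts was -0.17 to 0.17 for Clock and -0.32 to 0.12 for Npas2.

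Per2, a repressor of Clock and Bmal1, was low in combination hearts. Values in control hearts ran from -0.53 through a median of 0.03 to 0.33, and those in diabetes hearts from -0.41 through 0.04 to 0.63. Per2 in HF diet hearts 1 to 5 was 0.34, 0.20, 0.25, 0.37 and 0.00. In combination hearts 1 to 5 Per2 stood at -0.76, -0.45, -0.08, -0.08 and -0.35. All 5 combination hearts were below all 5 HF diet hearts, while control and diabetes hearts spread across both. Means ± SD were -0.34 ± 0.28 for the combination group, 0.23 ± 0.15 for HF diet, 0.05 ± 0.38 for diabetes and 0.02 ± 0.29 for control hearts.

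Per3 was high in some hearts and low in others of the same exposure. Control hearts ran from -0.52 through 0.24 to 0.72, and diabetes hearts from -1.19 through 0.23 to 0.95. Per3 in HF diet hearts 1 to 5 was 0.80, 0.46, -0.29, -0.41 and -0.42. Combination hearts 1 to 5 gave -1.39, -1.19, -0.96, 0.29 and 0.00. Combination hearts 1 to 3 and diabetes heart 5 were the lowest of all 23, and combination hearts 4 and 5 lay among the control hearts. The split followed the code stems: HF diet hearts 3, 4 and 5 share 1, and so do combination hearts 1 and 2 and combination hearts 4 and 5. Over the 5 pairs of HF diet or combination hearts with the same stem the median absolute difference in Per3 was 0.13, and over the 15 pairs with different stems within those groups it was 1.09. The same medians were 0.36 and 0.76 for Bmal1, 0.12 and 0.33 for Dbp, 0.10 and 0.61 for Nfil3, and 0.27 and 0.20 for Per2. Per2 was thus no closer between hearts of a stem than between others. These differences are described with no test, since pairs of hearts are not independent.

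Per1, the third Per gene, had the largest SD within groups of the 10 (0.68), close to that of Per3 (0.65), whose range over all 23 hearts was wider (2.34 against 2.22). It ran from -1.21 through 0.13 to 0.73 in control and from -0.65 through 0.40 to 0.99 in diabetes hearts. Per1 in HF diet hearts 1 to 5 was -0.12, -0.54, 0.12, 0.77 and -0.99, and combination hearts 1 to 5 gave -1.23, -0.53, 0.82, -0.04 and -0.08. Every group held hearts far above and far below the median, and no comparison passed the threshold. Of the Cry genes, whose proteins repress together with the Per proteins, Cry2 had its lowest group mean in combination hearts (-0.25 ± 0.34, SD, n = 5), with values of -0.66, -0.45, 0.21, -0.08 and -0.25 in hearts 1 to 5. Cry2 was 0.25, 0.28, 0.26, 0.14 and -0.08 in HF diet hearts 1 to 5, -0.53 to 0.44 in control and -0.53 to 0.79 in diabetes hearts. The groups overlapped for Cry2. For Cry1 the range was -0.40 to 0.31 among control, -0.45 to 0.57 among diabetes, -0.13 to 0.22 among HF diet and -0.11 to 0.43 among combination hearts, with the highest group mean (0.15 ± 0.23, SD, n = 5) in the last.

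Nr1d1, the REV-ERB alpha receptor that represses Bmal1, was tight in control hearts and wide in diabetes and combination hearts. Its SD was 0.70 among combination, 0.60 among diabetes, 0.30 among HF diet and 0.14 among control hearts. Control values lay between -0.12 and 0.23, and those of diabetes hearts between -0.71 and 1.04. Nr1d1 in HF diet hearts 1 to 5 was -0.03, -0.52, -0.35, 0.03 and -0.66, and combination hearts 1 to 5 gave -0.82, -0.36, 1.01, -0.50 and 0.02. Combination heart 3 and diabetes heart 6 were the high ones. Its relative Nr1d2 ran from -0.61 through 0.21 to 0.87 in control and from -0.80 through 0.39 to 0.57 in diabetes hearts. HF diet hearts 1 to 5 gave 0.22, -0.17, -0.40, -0.27 and -0.29 for Nr1d2, and combination hearts gave -0.19, -0.62, -0.46, -0.29 and 0.00. No combination heart was above the median of the 23 hearts for Nr1d2, whereas 5 of the 6 diabetes hearts were. Dbp, the D-box activator, ran from -0.35 through 0.00 to 0.75 in control and from -0.50 through 0.23 to 0.77 in diabetes hearts. HF diet hearts 1 to 5 gave 0.22, 0.03, -0.81, -0.37 and -0.49 for Dbp, and combination hearts gave -0.08, 0.04, -0.29, 0.04 and 0.08. The 3 lowest HF diet hearts for Dbp were those that share a code stem.

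**Figure D2:**
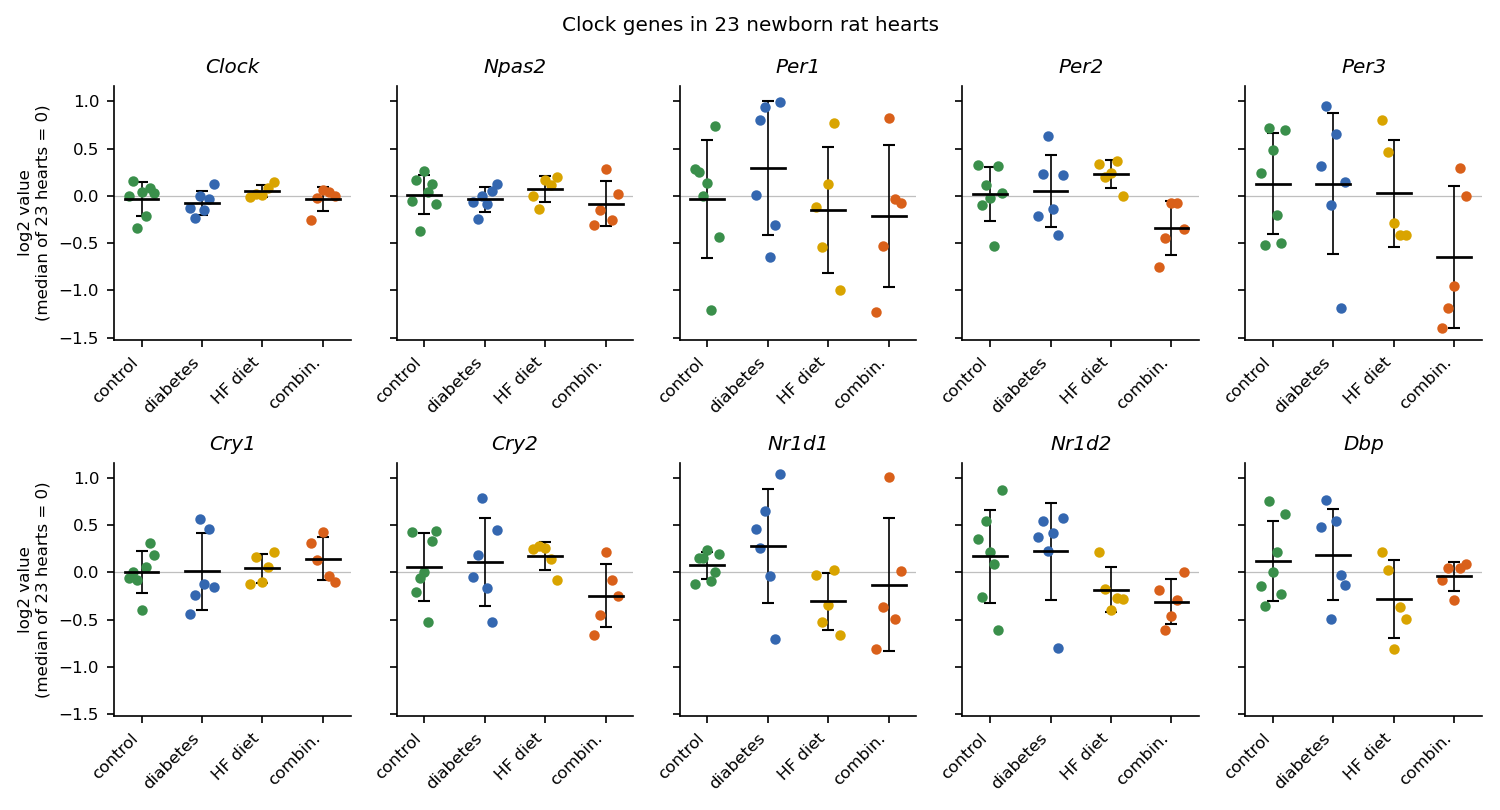
Centred log2 value (vertical axis, 0 is the median of 23 hearts) of the 10 clock genes in every heart by exposure group; points are hearts, horizontal lines group means and bars 1 SD. Combination hearts lie below every HF diet heart for Per2, control hearts are tightly grouped for Nr1d1, and Clock and Npas2 hardly spread.

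Some clock genes moved together from heart to heart, and others in opposite directions. Over the 23 hearts, 12 of the 45 pairs of clock genes (26.7%) were correlated at an adjusted p under 0.05 (two-sided permutation test, 100000 resamples, Benjamini-Hochberg over the 45 pairs), 9 with a positive and 3 with a negative sign. Among all pairs of the single-symbol probe sets, 8.58% had an r of 0.552 or more in either direction, the size of the weakest of these 12. With the mean of each group taken out first, these 12 pairs kept their sign and passed again. The permutations here and below treated the 23 hearts as independent, although some share a code stem. By their median difference, hearts of a stem lay closer than others in Per3, Dbp, Npas2 and Nr1d2, among other genes. The medians within and between stems were 0.076 and 0.256 for Npas2 and 0.133 and 0.275 for Nr1d2. Bmal1 and Nfil3 were closer within a stem too. The p-values of pairs with these genes may therefore be too small. Of the 45 coefficients 30 were positive, and their median was 0.19, where 50.1% of all pairs were positive. Within HF diet and combination hearts (5 each) no coefficient was computed, and those within control (n = 7) and diabetes hearts (n = 6) are given below as values. Neither group alone gave a pair past the adjusted threshold.

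Per2 and Cry2, 2 repressors, made the tightest pair. Pearson's r was 0.914 and Spearman's rho 0.84 (permutation adjusted p = 4.5e-04 and 9e-04). It was 0.861 in control and 0.966 in diabetes hearts, and 0.868 without combination heart 1 and diabetes heart 3, the 2 farthest from the median of Per2. With group means removed, Cry2 ranked 1 among 15309 other single-symbol probe sets for likeness to Per2, and Per2 ranked 1 for likeness to Cry2. Per1 joined this pair, with r = 0.693 to Per2 (rho = 0.609, permutation adjusted p = 0.00198 and 0.0129) and r = 0.683 to Cry2 (rho = 0.618, permutation adjusted p = 0.0027 and 0.0114). Without combination heart 1 and control heart 5 the 2 coefficients were 0.539 and 0.543. Nr1d1 followed Per1 with r = 0.71 (rho = 0.737, permutation adjusted p = 0.00191 and 0.00165), and r was 0.711 without the same 2 hearts. It followed Cry2 with r = 0.552 (rho = 0.498, permutation adjusted p = 0.024 and 0.0535), and r fell to 0.4 without diabetes heart 3 and combination heart 1, so that relation leaned on them. In control hearts, where Nr1d1 hardly varied, the coefficients of Nr1d1 with Per1 and Cry2 were 0.147 and 0.0374, and in diabetes hearts 0.751 and 0.849.

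Per2, Cry2 and Per1 also moved with the first principal component of all probe sets, with r of -0.839, -0.826 and -0.692 over the 23 hearts, given as a description. A list of chromatin regulators with long transcripts (16 of 25 measured) had a mean that followed Per2 and Cry2 with r = 0.785 each. That mean ran from -0.77 to -0.03 among combination, -0.05 to 0.25 among HF diet, -0.38 to 0.28 among diabetes and -0.33 to 0.33 among control hearts. The mean of the cardiomyocyte markers followed Per2 with r = 0.708. With the first component removed from every gene, an alternative chosen after seeing the data, r was 0.719 for Per2 and Cry2, 0.285 for Per1 and Per2 and 0.272 for Per1 and Cry2. The part of these lists in the correlation was not tested further. Per3, Nr1d2, Dbp, Clock and Npas2 followed the component less, with r between -0.543 and 0.253. With the mean of the cardiomyocyte markers r was 0.57 for Clock, 0.507 for Npas2, 0.251 for Per3, -0.0367 for Nr1d2 and -0.419 for Dbp. With that of the chromatin regulators it was 0.515, 0.395, 0.569, 0.359 and -0.188 in the same order. The part of these lists in the pairs of these genes was not tested.

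Per3, Nr1d2 and Dbp formed a second set. Per3 and Nr1d2 had r = 0.79 (rho = 0.778, permutation adjusted p = 4.5e-04 and 9e-04), and r was 0.909 in control, 0.908 in diabetes hearts and 0.8 without combination heart 1 and diabetes heart 5. Dbp followed Nr1d2 with r = 0.619 (rho = 0.545, permutation adjusted p = 0.00774 and 0.0313) and Per3 with r = 0.585 (rho = 0.666, permutation adjusted p = 0.014 and 0.0057). Without the 2 hearts farthest from the median on the first gene of the pair these were 0.616 and 0.677. In the adult clock these 3 genes belong to the output side that is high when Bmal1 is low, which is given here as background only.

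Opposite to Dbp stood the activators. Clock and Npas2 followed each other with r = 0.715 (rho = 0.686, permutation adjusted p = 0.00191 and 0.00416), and Dbp ran against Clock with r = -0.657 (rho = -0.621, permutation adjusted p = 0.00411 and 0.01) and against Npas2 with r = -0.634 (rho = -0.661, permutation adjusted p = 0.00692 and 0.0057). Without control heart 3 and combination heart 1 the 3 coefficients were 0.545, -0.673 and -0.635. Clock moved by only 0.50 from its lowest to its highest heart, so these pairs set a narrow range against a wide one. Cry1, the repressor that comes last in the daily order, ran against Per3 with r = -0.621 (rho = -0.649, permutation adjusted p = 0.00774 and 0.00643), and r was -0.523 without combination heart 1 and diabetes heart 5.

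The other loop genes placed these members further. Of a list of 13 other loop genes, 6 were measured by a probe set with 1 symbol, namely Bmal1, Bmal2, Bhlhe40, Bhlhe41, Nfil3 and Tef. Of their 60 pairs with the clock genes, 11 (18.3%) passed an adjusted p of 0.05 over the 60, 5 positive and 6 negative. Of the pairs of a clock gene with any other single-symbol probe set, 9.52% had an r of at least 0.564 in size, that of the weakest of the 11. Bmal1 ran against Per3 with r = -0.757 (rho = -0.764, permutation adjusted p = 7.5e-04 and 8e-04) and against Dbp with r = -0.627 (rho = -0.623, permutation adjusted p = 0.0102 and 0.0109). Without the 2 hearts farthest on Per3 or Dbp these were -0.73 and -0.616. In the hearts themselves, diabetes heart 2 had the lowest Bmal1 (-1.29) and the highest Per3 (0.95) and Dbp (0.77), and control heart 3 the next lowest Bmal1 (-1.01) with Per3 at 0.72 and Dbp at 0.75. At the other end, combination heart 1 had Bmal1 at 0.68 and Per3 at -1.39. Control heart 1 lay off this line, with Bmal1 at 0.83 and Per3 at 0.24. Bmal1 also followed the SD of the array (r = 0.609), which Per3 ran against (r = -0.616), and the mean of the glucocorticoid targets (r = 0.592). The array SD had a mean of 0.257 in combination and 0.213 to 0.226 in the other hearts. The part of these measures was not tested.

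Tef, a D-box activator like Dbp, followed Dbp with r = 0.86 (rho = 0.785, permutation adjusted p = 6e-04 and 8e-04) and Nr1d2 with r = 0.758 (rho = 0.807, permutation adjusted p = 7.5e-04 and 8e-04). Nfil3, the D-box repressor, followed Cry1 with r = 0.771 (rho = 0.726, permutation adjusted p = 6e-04 and 0.0012) and ran against Per3 with r = -0.718 (rho = -0.717, permutation adjusted p = 0.00108 and 0.0012). Without the 2 farthest hearts these 4 coefficients were 0.808, 0.723, 0.731 and -0.686. So the repressor and the activators of 1 DNA element stood on opposite sides of Per3 and Nr1d2. Nfil3 also followed the mean of a list of immediate early genes (r = 0.809), whose part in these pairs was not tested. The remaining pairs that passed were Nr1d2 and Nfil3 (r = -0.646), Per3 and Tef (0.647), Npas2 and Tef (-0.623), Clock and Tef (-0.589) and Dbp and Bhlhe41 (0.564). Their permutation adjusted p ran from 0.00771 to 0.0265, and without the 2 farthest hearts their coefficients were -0.608, 0.718, -0.598, -0.545 and 0.476. Clock with Tef and Dbp with Bhlhe41 had a rho whose adjusted p was above 0.05 (0.0662 and 0.0756). Bmal1 had r = 0.489 with Clock, at a permutation adjusted p of 0.0774, and r = -0.502 with Nr1d2, at 0.0765, and neither passed. In the adult loop Nr1d1 represses Bmal1, and over these hearts the 2 had r = -0.09.

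**Figure D3:**
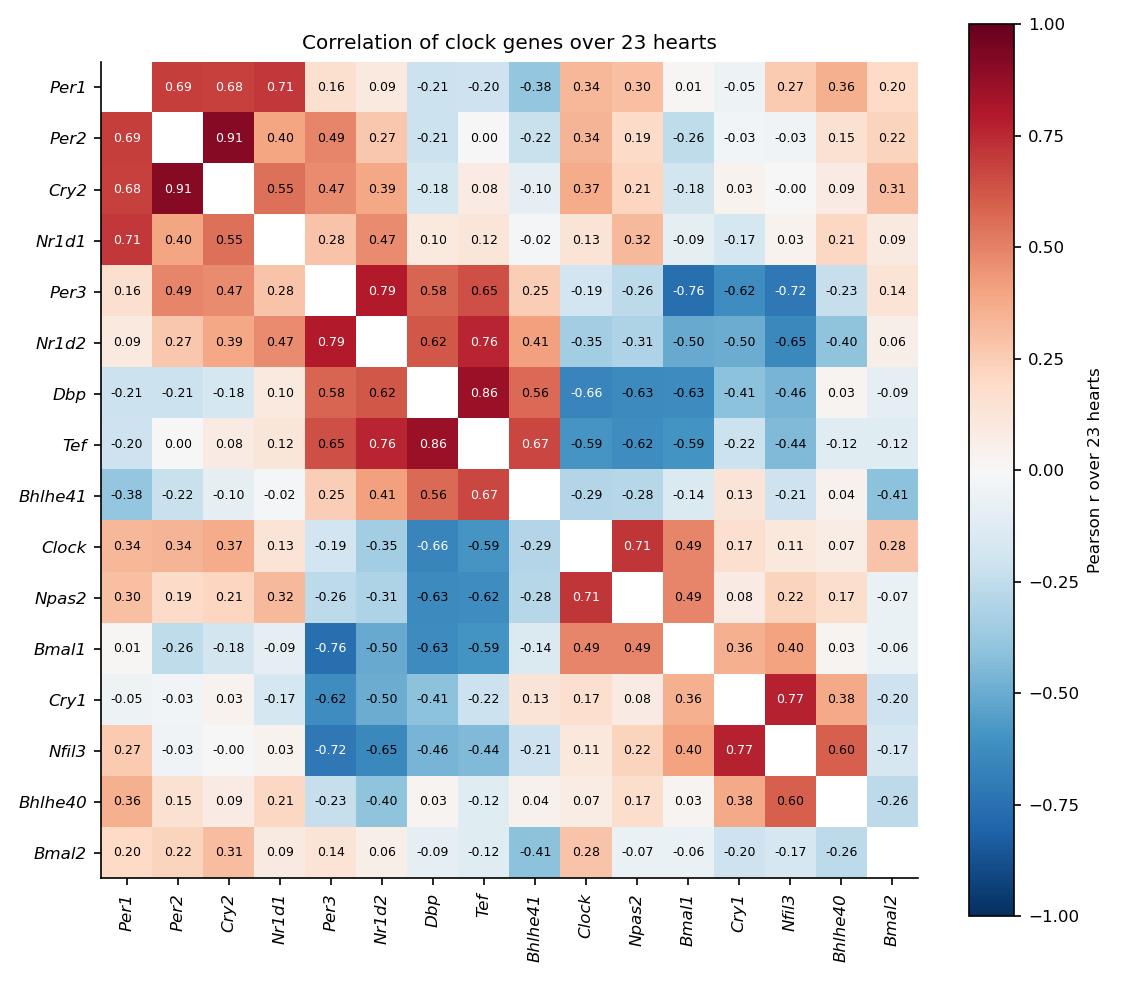
Pearson r over 23 hearts for each pair of the 10 clock genes and 6 other loop genes (red positive, blue negative, r printed in each cell). Per1, Per2, Cry2 and Nr1d1 form a red block at the upper left, and Per3, Nr1d2, Dbp and Tef a second one that is blue against Bmal1, Cry1 and Nfil3.

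**Figure D4:**
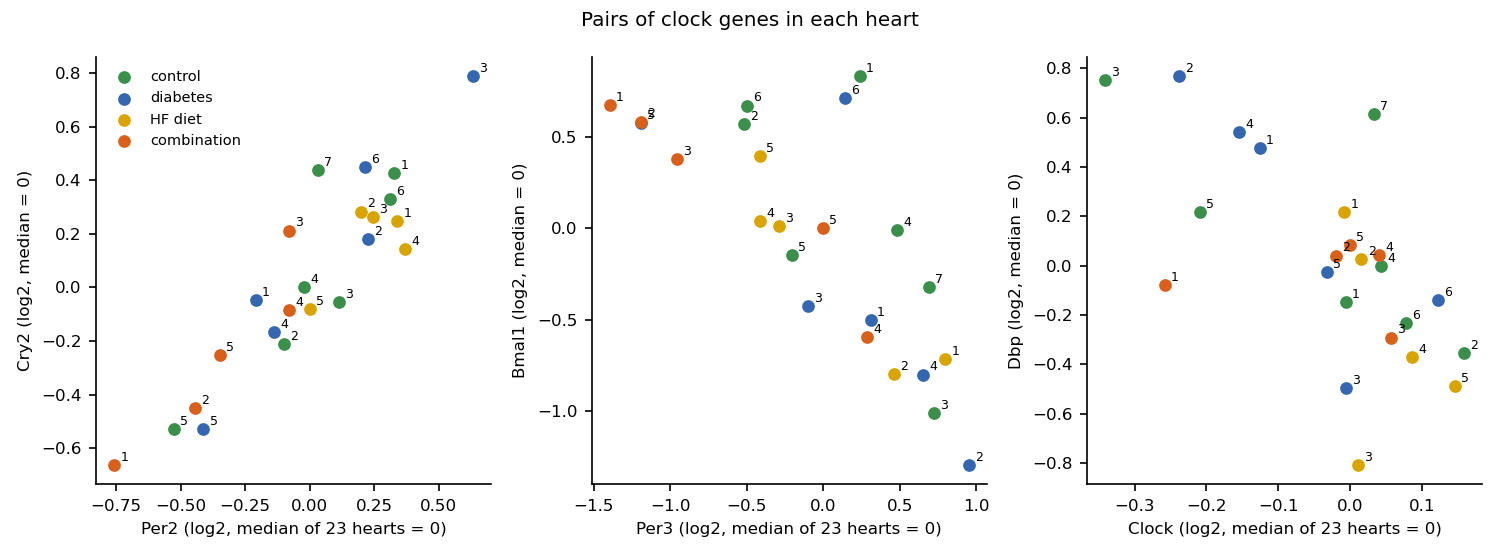
Centred log2 values of Per2 and Cry2, Per3 and Bmal1, and Clock and Dbp in each of the 23 hearts, coloured by group and numbered by heart. Each group is spread along the line of Per2 and Cry2 (r = 0.914), with diabetes heart 3 at the upper and combination heart 1 at the lower end, and control heart 1 lies above the falling line of Per3 and Bmal1 (r = -0.757).

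Beyond the loop, the probe sets most like Per2 with group means removed were Cry2 (r = 0.914), Schip1 (0.846), Meg3 (0.842), Map3k2 (0.837) and Aff4 (0.833). Those most like Dbp were Pcdhb4 (0.886), Ctnnal1 (0.875), Fdft1 (0.856), St6galnac2 (0.85) and Tef (0.843). Those most like Nr1d1 were Sox5 (0.788), Bcl3 (0.788), Or7a44 (0.786), Bach2 (0.783) and Akp3 (0.767), and those most like Clock were Cnnm2 (0.816), Adamts12 (0.808), Sf1 (0.805), Pdzd8 (0.804) and Wwp1 (0.804). A loop gene thus stood among the nearest 5 of Per2 and of Dbp, and none among those of Nr1d1 and Clock. All are correlations over the 23 hearts among 15309 probe sets, given as a description with no p.

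The comparison of exposure groups asked whether these genes differed with diabetes, HF diet or both. The sources do not give the time of day at which each heart was taken, so its part in the group differences was not tested. All 23 hearts were fitted in 1 limma model, and a gene passed where its difference was beyond 0.32 on the log2 scale, up or down, and its p before adjustment was under 0.05, the threshold of the methods. In combination against control hearts, 3 of the 10 genes were lower at that threshold and 0 higher, against 3.31% of all probe sets past it, 2.1% higher and 1.2% lower. A wide spread between hearts makes the fold limit easier to reach, and most clock genes spread more widely than most probe sets. The shares over all probe sets, here and below, are not matched for spread. None of the genes passed an adjusted p of 0.05 over the 29170 probe sets, nor did any probe set in any comparison, while 2889 probe sets had an unadjusted p under 0.05 here and the methods' t-test, with 361 past the threshold, also gave 0 after adjustment. The median difference of the 10 genes was -0.19, and 1 was positive, where the median over all probe sets was 0.00. The count was 0 without control heart 1, control heart 3 or combination heart 2, 1 without control heart 4, control heart 7 or combination heart 1, and 4 without control heart 5. It was also 0 with code stems averaged, with array weights, by the methods' t-test or with the first principal component as a covariate, under which Per2 differed by -0.14. Some marker lists of other tissues and cell types had median differences away from 0 in the same comparison, with few markers past the threshold. Lung markers (8 of 8) had a median of -0.41 and thymus markers (8 of 10) one of -0.45, with 0 positive in either. Control heart 1 was the heart high in both. Macrophage markers (9 of 9) had a median of 0.01 and cardiomyocyte markers (12 of 12) one of -0.03. Erythroid markers were read from 11 probe sets for a list of 13 genes, and a pair of these held identical values for Rhag. The median difference over the 11 was 0.37, with 9 positive and 1 past the threshold. Their mean ran from -0.37 to 1.16 over combination and -0.61 to 0.25 over control hearts. Fibroblast markers (9 of 9) had a median of -0.15 with 2 positive, and endothelial markers (6 of 7) one of -0.11 with 1 positive, 0 of either past the threshold. Their means lay at -0.29 to -0.01 and -0.25 to 0.08 in combination hearts, against -0.14 to 0.14 and -0.12 to 0.16 in control. Over the 23 hearts the erythroid, fibroblast and endothelial means had r = -0.326, 0.294 and 0.558 with Per2. The part of these lists in the differences was not tested.

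Per2 was lower in combination than control hearts, with a difference of -0.36 on the log2 scale (SE 0.16, limma adjusted p = 0.496). Without 1 of control hearts 1, 3 or 6 or combination hearts 1, 2 or 5 it no longer passed, with differences of -0.36 to -0.26. Per3 was lower, with a difference of -0.78 (SE 0.35, limma adjusted p = 0.496), and did not pass without 1 of control hearts 1, 3, 4 or 7 or combination hearts 1, 2 or 3, with differences of -0.76 to -0.59. Nr1d2 was lower, with a difference of -0.48 (SE 0.23, limma adjusted p = 0.5), and did not pass without 1 of control hearts 1, 3, 4 or 7 or combination hearts 2, 3 or 4, with differences of -0.49 to -0.37. All 3 calls were thus lost on leaving out any 1 of several hearts, in either group. The exact permutation test over hearts, two-sided, gave p = 0.0606, 0.0657 and 0.0732 for Per2, Per3 and Nr1d2.

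Against diabetes hearts, the same 3 genes were the ones past the threshold in combination hearts (3 of 10 lower, against 3.04% of all probe sets, 1.67% higher and 1.37% lower). An unadjusted limma p under 0.05 was found for 2745 probe sets. The 2 comparisons share the combination hearts. Per2 was lower, with a difference of -0.39 (SE 0.17, limma adjusted p = 0.528), Per3 with one of -0.78 (SE 0.36, limma adjusted p = 0.529) and Nr1d2 with one of -0.53 (SE 0.23, limma adjusted p = 0.528). Without 1 of diabetes hearts 2, 3 or 6 or combination hearts 1 or 2, Per2 no longer passed, at -0.37 to -0.28. Per3 was lost without 1 of diabetes hearts 1, 2, 4 or 6 or combination hearts 1, 2 or 3, at -0.78 to -0.59. Nr1d2 was lost without 1 of diabetes hearts 1, 2, 4 or 6 or combination hearts 2 or 3, at -0.50 to -0.45. The count was 0 without diabetes heart 2 or 6 or combination heart 2, 1 without diabetes heart 1 or 4 or combination heart 1, and 5 without diabetes heart 5. It was also 0 with code stems averaged, by the methods' t-test or with the component as a covariate (Per2 at -0.14). The exact permutation p was 0.0952 for Per2, 0.117 for Per3 and 0.0693 for Nr1d2.

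Against HF diet hearts, Per2 was the only clock gene past the threshold in combination hearts, 1 of 10 against 5.76% of all probe sets (2.84% higher and 2.92% lower). It was lower, with a difference of -0.57 (SE 0.17, limma adjusted p = 0.368, 95% interval -0.93 to -0.21). The 2 groups did not overlap, which held for 1.64% of all probe sets in this comparison, and the exact permutation p of 0.00794 is the smallest that 5 against 5 hearts allow. Leaving out any 1 heart did not end the call, and without combination heart 1 the difference was -0.47. With the first principal component as a covariate, chosen after seeing the data, it was -0.25 and did not pass. The list of chromatin regulators, which moved with Per2 over hearts, was lower at the threshold for 10 of its 16 probe sets in this comparison and 8 of 16 against control. Of the 11 erythroid probe sets 3 were higher at the threshold here, namely Ahsp and the pair for Rhag, which holds identical values. The median over the 11 was 0.31. Tie1 of the endothelial and Ryr2 of the cardiomyocyte markers were lower at the threshold, at -0.37 and -0.45. Lyz2 of the macrophage markers was higher, at 0.90. Fibroblast markers had a median of -0.21 with 0 past the threshold. The part of these lists was not tested. Cry2, the closest partner of Per2, differed by -0.42 (95% interval from limma -0.86 to 0.02) and did not pass, while the exact permutation test of this gene alone gave p = 0.0317. The count was 2 without HF diet heart 5, combination heart 3, 4 or 5, control heart 5 or diabetes heart 3 or 5. Cry2 was past the threshold beside Per2 with array weights, with quantile normalization, by the methods' t-test and with only the 2 groups fitted, while with the component Per1 passed alone.

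Neither single exposure put a clock gene past the threshold against control hearts, where 0.943% of all probe sets passed for HF diet (0.686% higher and 0.257% lower) and 0.305% for diabetes (0.223% higher and 0.0823% lower). At an unadjusted limma p under 0.05, 778 and 469 probe sets were found, and the methods' t-test put 158 and 51 past the threshold. In HF diet hearts Dbp differed by -0.41, Nr1d1 by -0.38 and Nr1d2 by -0.35 (limma adjusted p = 1.0 each), beyond the fold limit without passing. The exact permutation p was 0.0152 for Nr1d1, 0.135 for Dbp and 0.167 for Nr1d2, and Nr1d1 passed by the methods' t-test, with only the 2 groups fitted or with the component as a covariate. The spread of Nr1d1 was 0.14 in control and 0.30 in HF diet hearts, below the pooled value of 0.48 that enters the limma test. In diabetes against control hearts the 95% intervals reached past the fold limit for 7 genes, among them Per1 (-0.40 to 1.06), Per3 (-0.69 to 0.69), Cry2 (-0.33 to 0.44), Nr1d2 (-0.39 to 0.49) and Dbp (-0.36 to 0.49), and for Per2 and Nr1d1 on the upper side (0.35 and 0.71). They stayed inside it for Clock (-0.20 to 0.12), Npas2 (-0.26 to 0.16) and Cry1 (-0.29 to 0.31). For HF diet against control the count was 1 without HF diet heart 1, control heart 2 or control heart 6.

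Diabetes and HF diet hearts differed in Nr1d1 and Dbp, 2 of 10 higher in diabetes hearts against 0.439% of all probe sets (0.226% higher and 0.213% lower). An unadjusted limma p under 0.05 was found for 629 probe sets. The SDs of Nr1d1 (0.48) and Dbp (0.40) within groups were above the median of 0.17. The share over all probe sets is therefore not matched to these 2 genes. Nr1d1 was higher by 0.58 (SE 0.27, limma adjusted p = 1.0), and did not pass without 1 of HF diet hearts 2, 3 or 5 or diabetes hearts 1, 2, 3 or 6, with differences of 0.43 to 0.59. Dbp was higher by 0.47 (SE 0.22, limma adjusted p = 1.0), and was lost without control heart 4 or 5, HF diet heart 3, 4 or 5, diabetes heart 1, 2 or 4 or any combination heart, at 0.34 to 0.47. The exact permutation p was 0.0887 for Nr1d1 and 0.121 for Dbp. With HF diet hearts of a code stem averaged first, Dbp differed by 0.29 and did not pass. The count was 3 without diabetes heart 5, and 0 without diabetes heart 1, diabetes heart 2, HF diet heart 3 or HF diet heart 5. It was 1 without control heart 4 or 5, diabetes heart 3, 4 or 6, HF diet heart 2 or 4, or any combination heart.

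Whether the difference with diabetes was unlike on the 2 diets was tested as an interaction. For Per2 the difference of diabetes on HF diet (combination minus HF diet, -0.57) and of diabetes on control diet (diabetes minus control, 0.03) was -0.61 (SE 0.23, limma adjusted p = 0.672). It was the only clock gene of the 10 past the threshold, against 4.34% of all probe sets (1.78% higher and 2.56% lower). Leaving out any 1 heart did not end the call, and without combination heart 1 the term was -0.50. With hearts of a code stem averaged it was -0.58, and with the first principal component as a covariate -0.26, and it passed in neither. In the F test for any difference among the 4 groups, Per2 alone had an unadjusted p under 0.05 (limma adjusted p = 0.823), against 5.21% of all probe sets. That count was 0 without combination heart 1 or 2, 2 without control heart 6 or combination heart 3 or 4, and 4 without diabetes heart 5. The interaction count was 2 without diabetes heart 5 or combination heart 3.

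**Figure D5:**
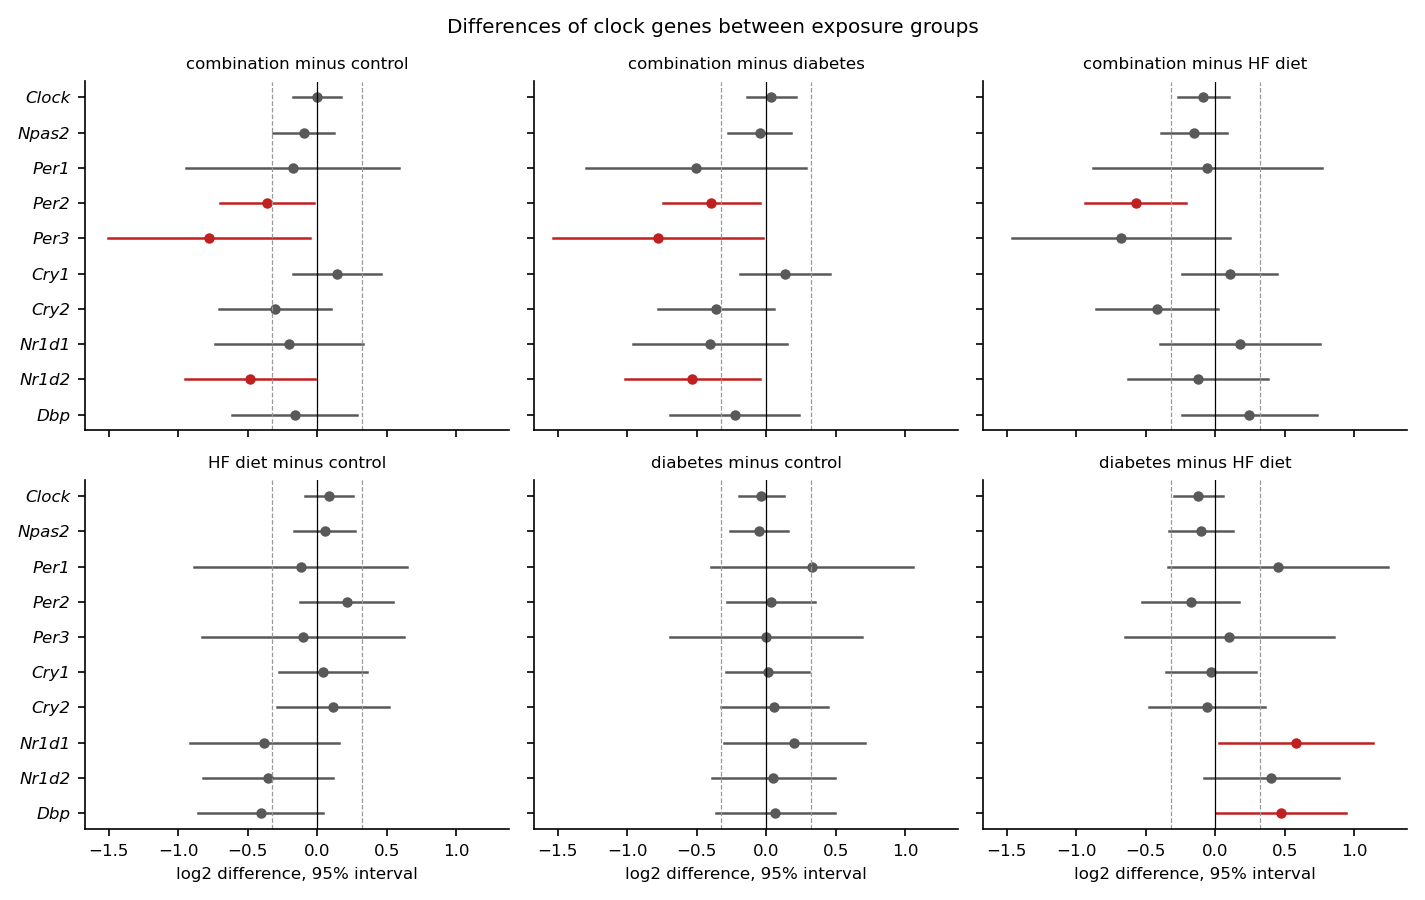
Difference of each clock gene on the log2 scale (horizontal axis) with its 95% interval from limma in the 6 comparisons; red marks genes past the threshold and dashed lines the limits of 0.32 in either direction. Per2, Per3 and Nr1d2 are lower in combination than in control and diabetes hearts, and Per2 alone against HF diet hearts.

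The other genes of the pathway are counted over the 6 comparisons and the interaction together, in at least 1 of which 10.5% of all probe sets passed, and 5 of the 10 clock genes. Among the other loop genes, 1 of 6 passed in any comparison. Bhlhe41, an E-box repressor, was lower in HF diet than control hearts, with a difference of -0.43 (SE 0.17, limma adjusted p = 1.0). HF diet hearts 3 and 4 were the low ones at -0.85 and -0.66, while heart 5 of the same stem was not low. Among HF diet and combination hearts the median absolute difference in Bhlhe41 was 0.46 within a stem and 0.32 between stems. Nfil3 was 0.44 above control in combination hearts (limma adjusted p = 0.539) and did not pass. Of the kinases, ligases and partners that set the stability of Per and Cry proteins, 15 of 18 were measured and 0 passed in any comparison. Of the clock-controlled outputs, 9 of 12 were measured and 1 passed, Nampt, which makes the NAD precursor used by sirtuins. Nampt was higher in combination hearts by 0.44 against control (SE 0.15, limma adjusted p = 0.495) and by 0.40 against HF diet hearts (limma adjusted p = 0.368).

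Inputs to the clock were read from 2 lists. Glucocorticoid targets (14 probe sets), genes that the stress hormone switches on together with Per1, had 1 past the threshold, Ddit4, higher in diabetes than HF diet hearts by 0.50 (limma adjusted p = 1.0). Immediate early genes (16 probe sets) had 1, Ier3, higher in combination than diabetes hearts by 0.43 (limma adjusted p = 0.528). Over hearts, the mean of the glucocorticoid targets followed Per1 with r = 0.536 and the mean of the immediate early genes with r = 0.535, given as a description. Per2 followed these lists less, with r = 0.269 and 0.268. Of the clock and other loop genes Nfil3 followed both most closely, with r = 0.601 and 0.809. Bhlhe40 followed the immediate early genes with r = 0.623. Others ran against a list, most of all Per3 against the glucocorticoid targets (-0.451) and Nr1d2 against the immediate early genes (-0.486). Group ranges of both list means overlapped throughout, at -0.28 to 0.63 in control and -0.25 to 0.67 in combination hearts for the glucocorticoid targets.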

How the data were processed

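RNA of 23 newborn rat hearts was hybridized to Affymetrix Rat Gene 1.0 ST arrays. The authors normalized probe intensities in GeneSpring GX and deposited 29170 probe sets on a log2 scale; the median of every row over the 23 hearts is 0. Neither the normalization algorithm nor the limits of the quality filter is stated in the sources used here. With rows centred, no level is left to filter dim probe sets on, and none were removed. The values of 198 probe sets repeat those of another. The number of arrays limits the precision.

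The 10 genes were matched to the RefSeq table by Entrez identifier (10 of 10, symbols unchanged). limma 3.58.1 in R 4.3.3 fitted 1 mean per group to all 23 hearts (19 residual and 3.56 prior degrees of freedom), and 6 differences and the interaction were taken from that fit, with Benjamini-Hochberg adjustment over all probe sets. Correlations used 100000 permutations of the hearts, whose smallest p is 1e-05, run with pandas 2.3.3 and numpy 2.4.6 under Python 3.11.15 (figures with matplotlib 3.10.9). The scripts were tested on simulated data with changes of known size.

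The named genes are the 10 members, the other loop genes measured, pathway and input genes past the threshold and, for Per2, Nr1d1, Dbp and Clock, the 5 probe sets most like each. The members and all 14 lists were chosen with earlier results of these data known, so no list is independent evidence. Alternatives were the methods' t-test, fits of 2 groups, leaving out each heart, code stems averaged or as a random block, a block on replicate number, array weights, quantile normalization and single-symbol probe sets only. The first principal component as a covariate was added after seeing the data. Sequences are those of RefSeq, assembly GRCr8.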

Additional observations from a re-analysis of the deposited data

Results flagged for a closer look

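Of the 64 gene-and-group sets of hearts examined, 4 held 1 heart far from the rest of its group, and chance alone gives about 1 in 20. Clock was -0.258 in combination heart 1, where the other hearts of the group lay between -0.019 and 0.057. Nr1d2 was -0.803 in diabetes heart 5, where the others lay between 0.226 and 0.573. Nfil3 was 0.955 in control heart 6, where the others lay between -0.349 and 0.174. That heart also had the highest mean of the immediate early genes, at 1.249. Bmal2 was -0.203 in control heart 5, where the others lay between -0.035 and 0.067.

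For Per2 the interaction of diabetes and HF diet was -0.61 on the log2 scale, taken as diabetes on HF diet minus diabetes on control diet. The interaction term in limma passed the unadjusted threshold (adjusted p = 0.672) and not after adjustment.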

How the results depend on the processing

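Of 327 alternative values for single genes 221 stayed past the threshold, 106 did not and 0 changed sign. The clock genes past the threshold numbered 3 in combination against control hearts, and 0 with the replicate block, code stems averaged, array weights, the methods' t-test or the first principal component as a covariate, 1 with quantile normalization, and 0 to 4 when 1 heart was left out. Against diabetes hearts the 3 became 0 with code stems averaged, the t-test or the component, 1 with only the 2 groups fitted, and 0 to 5 when 1 heart was left out. Against HF diet hearts the 1 became 2 with the replicate block, array weights, quantile normalization, the t-test or only the 2 groups fitted, and 1 to 2 when 1 heart was left out. For HF diet against control the 0 became 1 with the t-test, only the 2 groups or the component, and 0 to 1 when 1 heart was left out. For diabetes against HF diet the 2 became 1 with the replicate block, the stem as a random block or only the 2 groups, 0 with stems averaged or the t-test, and 0 to 3 when 1 heart was left out. The interaction count of 1 became 2 with the replicate block, 0 with stems averaged or the component, and 1 to 2 when 1 heart was left out, and the count for any difference became 0 with stems averaged or the component, 2 with array weights, and 0 to 4 when 1 heart was left out. The 12 correlated pairs became 0 within control or within diabetes hearts alone and 11 to 15 when 1 heart was left out. The causes were not tested.

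Hearts with the same replicate number were not more alike at the median than hearts with other numbers. Over 31 pairs of hearts with the same number the correlation of deviations ran from -0.422 to 0.559. Its median was -0.0828, against -0.00994 for other numbers, and 7 of 23 hearts were closest to their own number. The share to be had by chance was not worked out, so no conclusion on pairing is drawn. The replicate block changed several counts, as given above. Signal over background cannot be read from centred values, so what dim probe sets limit is unknown.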
